A study of Drosophila melanogaster with 6 samples.

Results

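The genes described here encode RNA-binding proteins and were expressed in L3 neurons, a class of lamina neuron in the fly visual system. They are 177 of the 13727 genes in the authors' deposited table, chosen by their category there, RNA binding alone, and by a mean normalized count over all libraries of at least 100. Imp, Syp and the genes of cytosolic and mitochondrial ribosomal proteins were left out by the same rule. Genes with RNA binding and a further category, such as splicing regulation or translation regulation, are therefore not members. Fluorescent L3 neurons of the optic lobe were sorted 24 h after the puparium formed, in 3 samples labelled WT and 3 labelled dFezf1. WT samples carry FRT40 in their titles, a recombination site near the base of chromosome arm 2L that is used to make clones, and dFezf1 is an allele of dFezf (earmuff, erm), a zinc finger transcription factor gene that lies on 2L. The sources used here do not say how the mutant L3 neurons were made. All WT titles bear dates in late November and all dFezf1 titles dates in mid December, so genotype and title date cannot be told apart. The design text says that the libraries of both genotypes were prepared and sequenced together.

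RNA-binding proteins act on a transcript from its synthesis to its decay. In the nucleus they direct splicing, editing and export, and in the cytoplasm they set where, when and how often an mRNA is translated and how long it lasts. Neurons carry their own sets of such proteins beside those that every cell uses. The ELAV family binds U-rich stretches and sets alternative splicing and polyadenylation in neurons. Musashi and Argonaute proteins, which are not confined to neurons, repress the translation of target mRNAs. Initiation factors, elongation factors, tRNA enzymes and the exosome belong to the common machinery.

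Values per library carry codes that match no sample label and were not used, so values are given as the authors' group means, with the standard error (SE) of each fold change as the precision. The authors' mean abundance has no stated unit. Across 173 members with an annotated exon length, the ratio of mean normalized count to mean abundance had a Spearman correlation of 0.956 with that length, as for a unit scaled by length, so abundance is the scale used to compare genes. The sources used here do not say whether the log2 fold changes in the authors' deposited table were shrunken toward 0. In 19 members the fold change over its SE differed by more than 1% from the deposited test statistic, and no gene has an SE above 0.806, so they are treated here as shrunken. For 42 members the SE was above 0.75, and an interval of such a gene says little about it. The rule used the mean level and the category, and did not use the fold change. A floor on the mean over both genotypes does admit genes that reach it in a single genotype, which is counted below.

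The label of the cells was checked against marker genes. erm itself, which marks L3 among lamina neurons, had an authors' mean abundance of 55.1 in WT and 49.2 in dFezf1 in the authors' deposited table. The neuronal markers elav, nSyb, brp and Syt1 summed to 165 in WT and 268 in dFezf1, with none of the 4 called. The summed abundance of 5 glial markers was 1.76 in WT and 7.94 in dFezf1, that of 6 photoreceptor markers 1.29 and 3.45, and that of 4 blood cell markers 0.00788 and 0.0105. None of these was called, repo was above 0 in both genotypes, and ninaE and trp were listed at 0 in both. Among the glial markers Gs2 was at 0.262 in WT and 4.08 in dFezf1, and nrv2 at 0.894 and 2.55. The others were lower in dFezf1 than these, with repo at 0.162 and 0.356, moody at 0.258 and 0.670 and alrm at 0.181 and 0.285. Of 6 markers of other lamina neurons, which summed to 0.433 and 2.72, the L1 marker svp was called higher, with an authors' mean abundance of 0.0408 in WT and 2.02 in dFezf1. The 5 progenitor markers summed to 26.9 and 17.9, and none was called. Nearly all of that was dac, at 26.9 in WT and 17.6 in dFezf1, while dpn, ase, wor and mira were each at 0.153 or less in both genotypes. The sum is thus a value of dac and is not read as a level of progenitors. The part of other cells in the values below was not tested. In sorted bulk samples a lower level per cell and fewer cells that express a gene cannot be told apart.

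The most abundant members were a mixture of neuronal regulators and translation factors. Rbp6, which encodes a Musashi family protein, had the highest abundance of the 177 in both genotypes, 468 in WT and 573 in dFezf1 in the authors' deposited table. Ef1alpha100E (eEF1alpha2), the elongation factor that brings aminoacyl-tRNA to the ribosome, followed in WT at 346, with 313 in dFezf1, and CG13298 (Sf3b6), a subunit of the SF3b complex that recognises the branch site in splicing, stood at 345 in WT and 99.8 in dFezf1. shep (alan shepard), a neuronal RNA-binding protein gene known for its part in remodelling neurons at metamorphosis, was at 211 and 333 in the authors' deposited table. These values are group means with no replicate spread, so their order is a description.

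Translation factors filled most of the next places in WT. Ef1beta (eEF1beta), the exchange factor of eEF1alpha, was at 208 in WT and 174 in dFezf1, and the initiation factor subunits Trip1 (eIF3i) and eIF-3p40 (eIF3h) were at 155 and 106 in WT and 117 and 97.1 in dFezf1 in the authors' deposited table. The cap-binding protein gene eIF-4E (eIF4E1) was at 104 in WT and 91.7 in dFezf1, CG17768 at 103 and 78.8, and CG9099 (DENR), a factor in translation reinitiation, at 99.8 and 80.8. The range over all members ran from 0.00205 (fus) to 468 in WT, with a median of 7.62, beside a median of 5.62 over the 5861 tested genes at or above the same floor. In WT 9 members were above 100 in the authors' mean abundance, and in dFezf1 5 were.

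**Figure D1:**
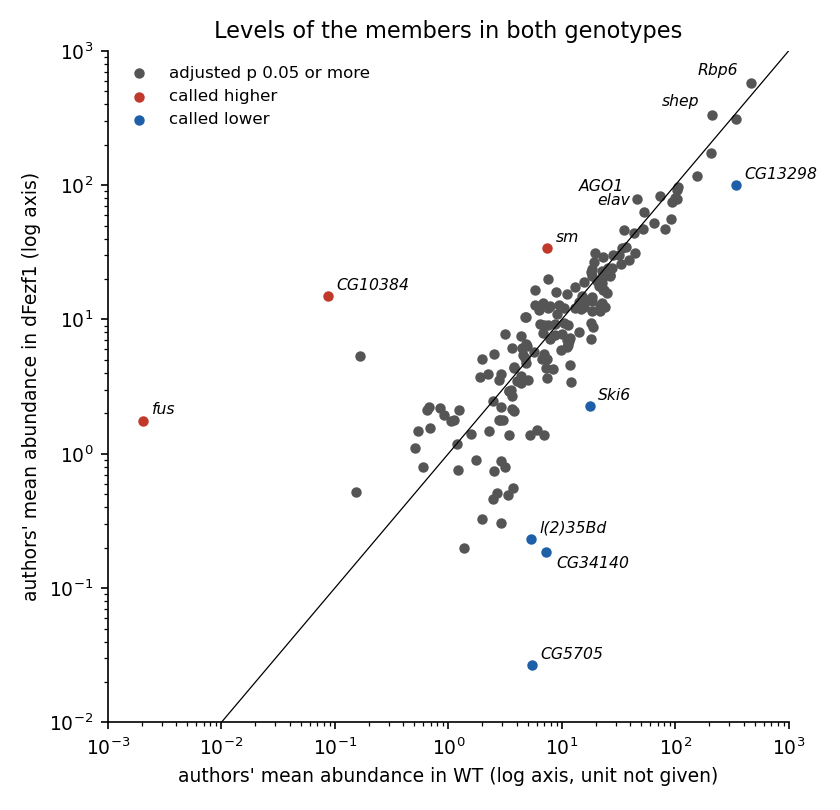
Authors' mean abundance of each member in WT (x axis) and dFezf1 (y axis), both log axes in a unit that is not given, 1 point a gene, with the line of equal levels; CG3709, listed at 0 in dFezf1, is not drawn. Most members lie near the line, from fus at 0.00205 to Rbp6 at 468 in WT, and CG10384 and fus lie far above it while CG5705, CG34140 and l(2)35Bd lie far below.

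In the comparison of dFezf1 with WT, 3 members were higher (CG10384, sm and fus) and 6 were lower (CG3709, CG5705, l(2)35Bd, CG13298, Ski6 and CG34140) (adjusted p under 0.05, the authors' deposited table). That is 9 of 177 members called, or 5.08%, beside 6.82% of all 9387 tested genes and 5.46% of the tested genes at or above the floor. Of all tested genes 4.33% were higher and 2.49% lower, and of those at or above the floor 3.53% and 1.93%. The 95% interval excluded 0 for all 9, and a call with such an interval was made for 5.19% of tested genes at or above the floor. The share of members called is thus near the background, and nothing is read from it about RNA-binding proteins. Over the members the median log2 fold change was -0.06, with the middle 50% of genes between -0.43 and 0.38, and over all tested genes at or above the floor it was 0.01, between -0.41 and 0.48. At an unadjusted p under 0.05 stood 23 members, 13.0%, beside 13.2% of tested genes at or above the floor.

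A floor on the mean of both genotypes admitted some members through 1 genotype. When each mean normalized count was split in proportion to the authors' group means, 28 members were under 100 in 1 genotype, and 7 of the 9 called members were among them. The other called members are sm and CG13298. The split uses the group means, so a large change itself places a gene among the 28, as for CG10384, and nothing is read from these counts.

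**Figure D2:**
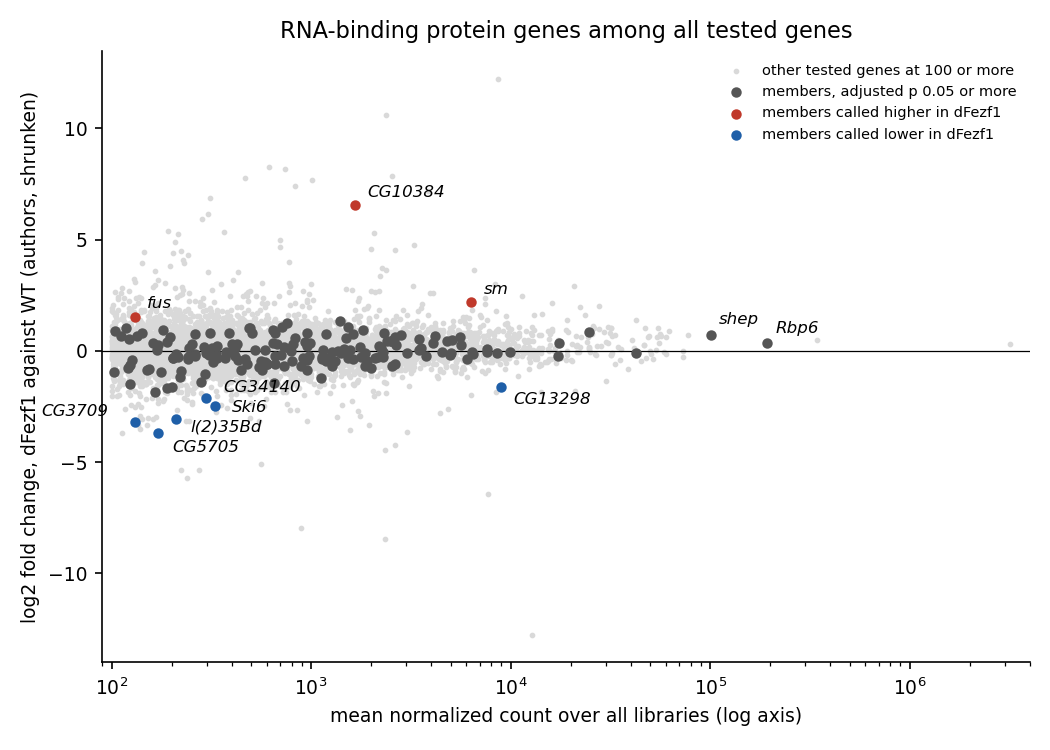
Log2 fold change of dFezf1 against WT (y axis, authors' shrunken values) by mean normalized count (x axis, log axis) for 177 members and, in pale grey, the other tested genes at or above 100. The 9 called members are named, 3 above and 6 below 0, and Rbp6 and shep, which have the highest mean normalized counts, lie at 0.34 and 0.72.

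Among regulators of mRNA fate, sm and fus were higher in dFezf1. sm (smooth) encodes a protein related to hnRNP L, a splicing and mRNA regulator of mammals. The authors' mean abundance of sm was 7.45 in WT and 34.0 in dFezf1, 4.57 times as high. Its log2 fold change was 2.18 ± 0.37 (SE) per the authors' deposited table, and its adjusted p 2.66e-07. The mean normalized count of sm was 6335. It went from place 92 of the 177 by abundance in WT to place 22 in dFezf1. In BDGP6 the gene lies on chromosome 2R from 19517864 to 19631508 on the minus strand, with 21 annotated transcripts, and 3 tested genes inside its span on the plus strand were not called.

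fus (fusilli), whose mammalian relatives are the epithelial splicing regulators ESRP, was near 0 in WT and low in dFezf1. WT had an authors' mean abundance of 0.00205 and dFezf1 one of 1.77. The log2 fold change was 1.53 ± 0.77 (SE) per the authors' deposited table, with an adjusted p of 0.00166. The mean normalized count was 130, and the fold change is far smaller than the ratio of the means. Its 95% interval, from 0.03 to 3.04, only just left out 0, while its deposited test statistic was 3.97. fus lies on 2R from 15657318 to 15676669 on the minus strand, and CG42524, which lies 103 bases from it on the other strand, was also called higher, with a log2 fold change of 2.04 ± 0.55 (SE) in the authors' deposited table.

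CG10384, an uncharacterized gene of the category, had the greatest fold change of all members. It stood at 0.0878 in WT, place 176 of 177 by the authors' mean abundance, and at 14.9 in dFezf1, place 56. The log2 fold change was 6.55 ± 0.51 (SE) per the authors' deposited table, with an adjusted p of 9.74e-34, at a mean count of 1656. It lies on 2R from 22454741 to 22472995 on the plus strand and meets CG45062 of the minus strand in 1 base. CG45062 was called higher too, with a log2 fold change of 1.24 ± 0.74 (SE) in the authors' deposited table at a mean normalized count of 43.3.

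The 6 lower members act in splicing, RNA decay, RNA modification and mitochondrial translation, where a role is known. CG13298 (Sf3b6), the abundant splicing factor subunit, fell by 1.63 ± 0.40 (SE) on the log2 scale with an adjusted p of 0.00121 per the authors' deposited table. Its means of 345 in WT and 99.8 in dFezf1 differ 3.46 times, and it was still the sixth most abundant member in dFezf1. It lies on 3L from 6192124 to 6193179 on the minus strand, 300 bases from Tnpo and 74 from CG7386, neither of them called.

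Ski6, the fly Rrp41 subunit of the exosome that degrades RNA from its 3′ end, and CG5705 (mRF1), a release factor of mitochondrial ribosomes, are neighbours on 2L. CG5705 lies from 13219979 to 13221398 on the plus strand and Ski6 from 13221397 to 13222429 on the minus strand, so their ends overlap by 2 bases. The authors' mean abundance of Ski6 was 17.6 in WT and 2.27 in dFezf1, and that of CG5705 was 5.44 and 0.0268. The log2 fold changes per the authors' deposited table were -2.46 ± 0.64 (SE) for Ski6, with an adjusted p of 0.00255, and -3.69 ± 0.79 (SE) for CG5705, with an adjusted p of 9.33e-06. The flanking genes CG9426, 55 bases from CG5705, and CG16812, 157 bases from Ski6, had log2 fold changes of -1.02 and -0.76 per the authors' deposited table and were not called.

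Both called genes of RNA modification encode pseudouridine synthases by their names or descriptions. CG3709 (Pus10) had an authors' mean abundance of 2.24 in WT and was listed at 0 in dFezf1. Its log2 fold change was -3.20 ± 0.80 (SE) per the authors' deposited table, and its adjusted p 2.54e-06. It lies on 2L from 153539 to 155305 on the minus strand, wholly inside the span of ND-15 on the plus strand, which was not called. ND-15 had a mean normalized count of 2301 beside 131 for CG3709, so the origin of the reads given to CG3709 is uncertain. CG34140, which the deposited description names as a tRNA pseudouridine synthase, was at 7.28 in WT and 0.187 in dFezf1, with a log2 fold change of -2.11 ± 0.80 (SE) and an adjusted p of 0.0253 per the authors' deposited table. It lies on 3L wholly inside the span of Mkp on the same strand, so the origin of reads in this region is uncertain. Mkp had a log2 fold change of 0.01 per the authors' deposited table, and a mean normalized count of 56.9 beside 298 for CG34140. CG13875, which overlaps CG34140 by 14 bases on the other strand, had a log2 fold change of -1.57 ± 0.78 (SE) per the authors' deposited table. Mtch, 201 bases from CG34140, had one of -0.82 ± 0.36 (SE) there, and neither was called. CG4159 (Pus1), a further pseudouridine synthase, was at 0.838 in WT and 2.17 in dFezf1 and was not called.

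l(2)35Bd, to which no role is given here, had an authors' mean abundance of 5.32 in WT and 0.231 in dFezf1. The log2 fold change per the authors' deposited table was -3.07 ± 0.73 (SE) and the adjusted p 0.000585. The deposited positions place it on 2L from 15009939 to 15011764, and its identifier was not found in the annotation used. THG, 214 bases from it, had a log2 fold change of -0.03 per the authors' deposited table.

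**Figure D3:**
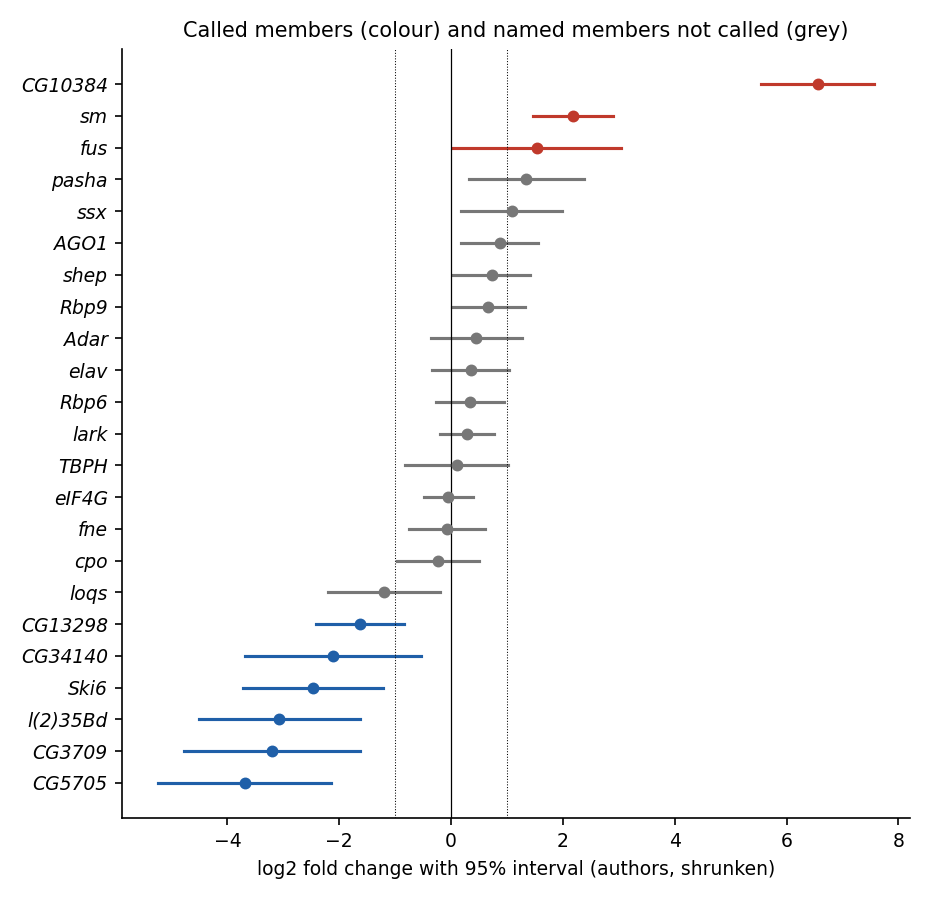
Log2 fold change of dFezf1 against WT with its 95% interval (x axis, authors' shrunken values and SE) for the 9 called members, red where higher and blue where lower, and for 14 named members that were not called, in grey; dotted lines mark a 2-fold change. CG10384 at 6.55 stands apart from all others, the interval of fus starts at 0.03, and the interval of eIF4G runs from -0.48 to 0.39.

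None of the 4 ELAV and Sex-lethal family members was called. elav, the pan-neuronal member, had an authors' mean abundance of 52.6 in WT and 63.6 in dFezf1 and a log2 fold change of 0.35 ± 0.35 (SE) in the authors' deposited table. fne (found in neurons), an ELAV paralogue that shuttles to the cytoplasm, was at 16.7 and 14.0, with a log2 fold change of -0.07 ± 0.35 (SE) in the authors' deposited table. Its 95% interval, from -0.75 to 0.61, lay within a 2-fold change. Rbp9, the third ELAV family gene, was at 7.62 and 12.2 with 0.67 ± 0.33 (SE), and ssx (sister-of-Sex-lethal) at 4.70 and 10.3 with 1.08 ± 0.46 (SE) as log2 fold change of the authors' deposited table. Their adjusted p were 0.325 and 0.198.

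Among the other mRNA regulators, Rbp6 and shep had log2 fold changes of 0.34 ± 0.31 and 0.72 ± 0.35 (SE) in the authors' deposited table and adjusted p of 0.695 and 0.306. cpo (couch potato), named for the sluggish behaviour of its mutants, was at 33.5 in WT and 25.8 in dFezf1, with -0.24 ± 0.38 (SE) as log2 fold change of the authors' deposited table. lark, a regulator of circadian output, was at 72.8 and 82.9, and its log2 fold change of 0.28 ± 0.25 (SE) in the authors' deposited table came with a 95% interval within a 2-fold change. TBPH, the fly TDP-43, was at 13.1 and 12.3, with 0.10 ± 0.47 (SE), and nonA, a gene of visual and courtship song behaviour, was at 6.77 and 7.89, with 0.44 ± 0.44 (SE), as log2 fold changes of the authors' deposited table. Nsun2, a cytosine methyltransferase of tRNA, was at 1.24 and 2.10, with a log2 fold change of 0.34 ± 0.80 (SE) per the authors' deposited table. Adar, which edits adenosine to inosine in neuronal transcripts, was at 11.1 and 15.4 with a log2 fold change of 0.45 ± 0.42 (SE) in the authors' deposited table. Of the quaking-related genes, qkr58E-3 was at 43.0 and 44.0 and qkr58E-1 at 18.6 and 21.1, while qkr58E-2 was at 7.01 and 1.39. The last had a log2 fold change of -1.46 ± 0.69 (SE) in the authors' deposited table (adjusted p 0.284). Not all genes of this paragraph share a role, and Adar was grouped under RNA editing and modification. Among tested genes at or above the floor 2951 of 5861 had a fold change above 0. Of the 28 mRNA fate regulators 20 did, with a median of 0.31. Their median exon length was 5291 bases, and of 1561 such tested genes with 4000 bases of exon or more 1105 had a fold change above 0, with a median of 0.35.

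The 10 small RNA genes held no call. AGO1, the Argonaute of the microRNA pathway, was at 45.9 in WT and 78.5 in dFezf1, with a log2 fold change of 0.87 ± 0.35 (SE) in the authors' deposited table (adjusted p 0.15). pasha, the partner of drosha in cutting primary microRNAs, was at 5.76 and 16.5, with 1.35 ± 0.53 (SE) and an adjusted p of 0.125, while drosha was at 3.40 and 2.94, in the authors' deposited table. loqs, the partner of Dicer-1, was at 18.0 and 7.09 with a log2 fold change of -1.20 ± 0.51 (SE) and an adjusted p of 0.19 per the authors' deposited table. papi, a piRNA factor, was at 2.48 and 0.459 with -1.83 ± 0.72 (SE) and an adjusted p of 0.125 per the authors' deposited table. AGO2, the Argonaute of RNA interference, was at 8.74 and 9.32, Dcr-2 at 2.86 and 1.77, r2d2 at 7.80 and 7.21, Dcr-1 at 1.20 and 1.19, and vig at 35.1 and 46.3. The fold changes of the group lay on both sides of 0, 4 above and 6 below.

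None of the 30 members of translation initiation was called. Their median log2 fold change was -0.11, with 10 above 0 and 20 below, and for 11 the 95% interval lay within a 2-fold change. Their median exon length was 1781 bases. Of 1457 tested genes at or above the floor with 1500 to 2500 bases of exon, 610 had a fold change above 0, with a median of -0.13. eIF4G (eIF4G1), the scaffold of the cap-binding complex, was at 23.5 in WT and 21.5 in dFezf1, with a log2 fold change of -0.05 ± 0.22 (SE) in the authors' deposited table. eIF-4E had -0.14 ± 0.30 (SE), Trip1 -0.34 ± 0.26 (SE) and eIF-3p40 -0.06 ± 0.34 (SE) as log2 fold changes of the authors' deposited table. The value farthest from 0 was that of eIF2B-delta, a subunit of the exchange factor of eIF2, at -1.40 ± 0.65 (SE) with an adjusted p of 0.262 per the authors' deposited table. Its means were 5.27 and 1.39. Cytosolic elongation and release held no call among 9, with -0.08 ± 0.24 (SE) for Ef1alpha100E and -0.06 ± 0.24 (SE) for EF2 (eEF2) as log2 fold change of the authors' deposited table. Ef1alpha48D, the paralogue of Ef1alpha100E, was at 19.4 in WT and 31.1 in dFezf1, with a log2 fold change of 0.73 ± 0.33 (SE) in the authors' deposited table (adjusted p 0.245). The level of Ef1alpha100E was well above it in both genotypes.

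In the remaining groups the calls were those named above. RNA decay held 1 call among 6, and DCP2, the decapping enzyme, was at 24.7 in WT and 22.4 in dFezf1 with a log2 fold change of -0.08 ± 0.29 (SE) in the authors' deposited table. Splicing and the exon junction complex held 1 call among 8. tsu, the Y14 subunit of that complex, was at 93.2 and 74.5 with -0.26 ± 0.39 (SE), and eIF4AIII, its helicase, at 11.3 and 6.43 with -0.44 ± 0.69 (SE) as log2 fold changes of the authors' deposited table. YT521-B (Ythdc1), the nuclear reader of N6-methyladenosine, was at 22.4 and 13.2 with a log2 fold change of -0.59 ± 0.35 (SE) in the authors' deposited table. The signal recognition particle held no call among 5, with Srp54k at 11.3 and 9.08, Srp68 at 7.62 and 9.12 and Srp72 at 8.30 and 4.29. Ribosome biogenesis held none among 5: Nop60B, a pseudouridine synthase of ribosomal RNA, was at 4.38 and 3.76, NHP2 at 7.51 and 19.9, and Nmd3, an export adaptor of the large ribosomal subunit, at 2.90 and 0.303. Nufip at -1.68 ± 0.78 (SE), Pof, which binds genes of the fourth chromosome, at -1.60 ± 0.66 (SE), and Nmd3 at -1.47 ± 0.80 (SE) were, after papi and beside qkr58E-2, the log2 fold changes farthest from 0 without a call in the authors' deposited table.

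**Figure D4:**
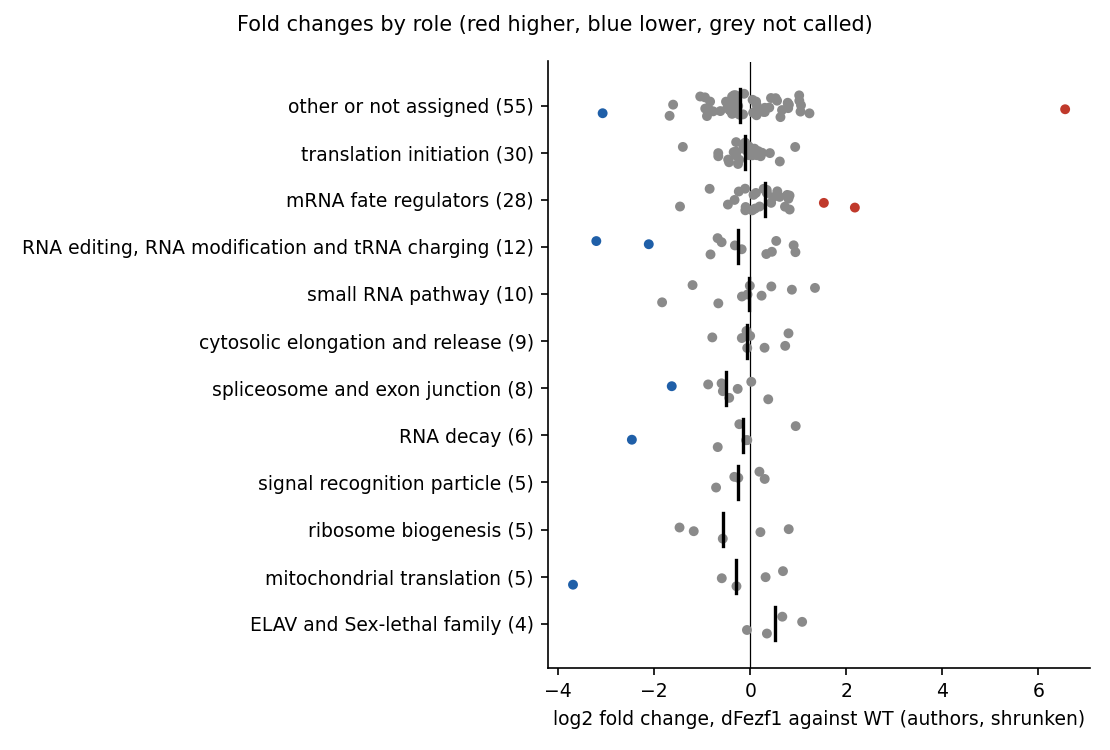
Log2 fold change of dFezf1 against WT (x axis, authors' shrunken values) of the 177 members by role, with the number of members in brackets, 1 point a gene and a bar at each group's median; the vertical spread within a row has no meaning. The bar of mRNA fate regulators lies at 0.31 and that of translation initiation at -0.11, and CG10384, at 6.55 among the genes with no role given, lies farthest from 0.

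Over all 177 members, the 95% interval lay within a 2-fold change for 26, or 14.7%, beside 9.11% of tested genes at or above the floor. For the members with a mean normalized count of 3000 or more this was 19 of 29, and under 1000 it was 0 of 103 members. For the others a p that missed the threshold does not bound the change to 2-fold. The genes nearest to the floor were CG9143 and CG4159 inside it, at mean normalized counts of 103 and 104, and ico (mEFG1) and CG10341 outside it, at 99.3 and 94.3, and none of the 4 was called in the authors' deposited table. Of the 70 genes of the category below the floor, 48 were tested and 3 called, all higher: CG7849, at 0.0235 in WT and 3.51 in dFezf1, and CG34334 and CG3808, both listed at 0 in WT. Of these 3 only CG7849 had a 95% interval that excluded 0. CG34334 had a log2 fold change of 0.54 ± 0.59 (SE) but a deposited test statistic of 5.80, so its interval and its call rest on different values.

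Gene size moved with the fold change. Across 173 members with an annotated exon length, that length and the log2 fold change had a Spearman correlation of 0.43 over genes, and over 5782 tested genes at or above the floor it was 0.30. Genes share the 6 libraries, so no p is given. The 41 members under 1500 bases of exon had a median log2 fold change of -0.30, and the 39 members of 4000 bases or more one of 0.35. Over all tested genes at or above the floor these medians were -0.19 and 0.35. The 5 lower members with a known length had 920 to 1732 bases of exon, and the 3 higher members had 3849 (CG10384), 7287 (fus) and 16635 (sm). The groups also differed in size, with a median exon length of 5291 bases among mRNA fate regulators and 1781 among members of translation initiation. The part of length in the fold changes of these groups was not tested.

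**Figure D5:**
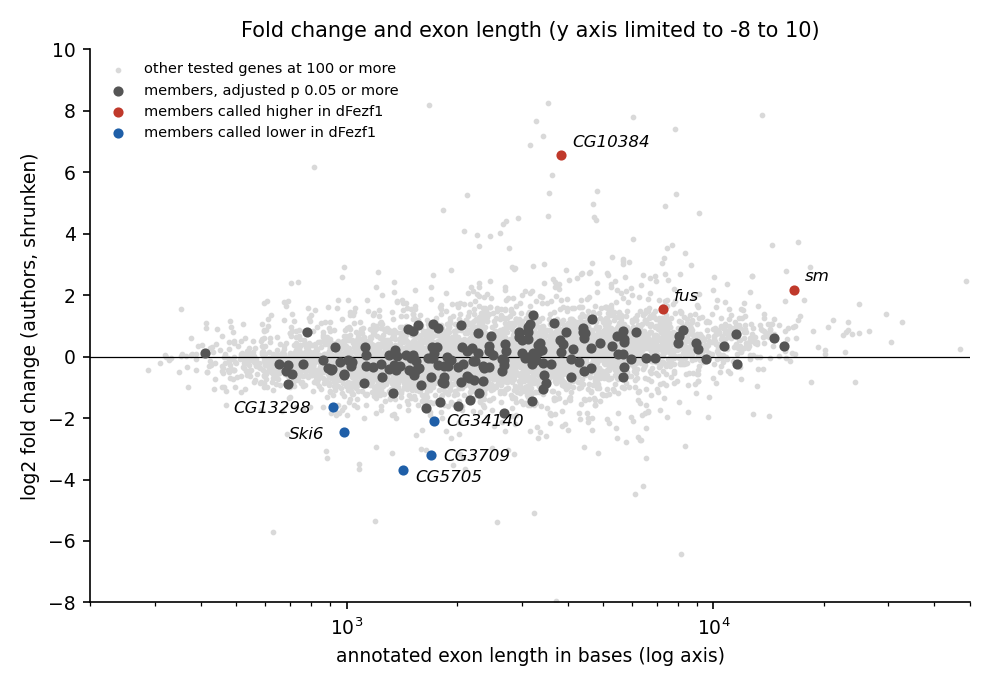
Log2 fold change of dFezf1 against WT (y axis, authors' shrunken values, limited to -8 to 10 so that a few other genes are not drawn) by annotated exon length in bases (x axis, log axis) for 173 members and the other tested genes at or above the floor. The 5 lower called members drawn lie between 920 and 1732 bases, and the 3 higher ones between 3849 and 16635.

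The called members lay on 3 chromosome arms, and no difference between arms was tested. On 2L 4 of 31 members were called, all lower, on 2R 3 of 44, all higher, on 3L 2 of 35, both lower, and none among 39 on 3R and 27 on X. For tested genes at or above the floor, 3.14% of those on 2L were lower and 4.02% higher. On 2R these shares, lower first, were 2.13% and 3.57%, and on 3L 2.24% and 2.77%. On 3R they were 1.21% and 3.05%, and on X 1.32% and 4.05%. The 27 members on 2L that were not called had 11 fold changes above 0 and 16 below. Of the 1019 tested genes at or above the floor on 2L, 467 were above 0 and 552 below. CG5705 and Ski6, both among the 4 called on 2L, are the overlapping neighbours described above. erm and the FRT40 site lie on 2L, and the part of the arm's background in these values was not tested.

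Lists of known RNA-binding and RNA-processing genes that go beyond the members held 202 tested genes, and they hold 59 of the 177 members. Of the 202 genes 3 were higher and 2 lower, or 2.48%, in the authors' deposited table. That stands beside the 6.82% of all tested genes and 5.46% of those at or above the floor. Of the 5 only fus is a member. The lists leave out the other called members, so this share depends on which genes were listed. bru-3, a Bruno family translational regulator in the category RNA binding and translation regulation, was at 88.5 in WT and 22.7 in dFezf1, and fell by 1.86 ± 0.37 (SE) on the log2 scale with an adjusted p of 1.18e-05 per the authors' deposited table. Prp31, a protein of the spliceosome, was at 7.19 and 0.588, with a log2 fold change of -2.43 ± 0.72 (SE) and an adjusted p of 0.0121 per the authors' deposited table. how, a STAR family regulator known from muscle and glia, and armi, a piRNA helicase, were listed at 0 in WT and reached 0.782 and 0.845 in dFezf1, with adjusted p of 0.0085 and 0.000307 in the authors' deposited table. The 95% interval of how, from -0.12 to 2.82, included 0, while its deposited test statistic was 3.52.

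By list, no gene was called among 16 hnRNP genes, of which 14 had a fold change above 0 with a median of 0.46, or among 21 translation factors, of which 15 lay below 0 with a median of -0.11. The hnRNP list does not hold sm, the called relative of hnRNP L, and it does hold the Musashi genes Rbp6 and msi. Of 5861 tested genes at or above the floor 2951 had a fold change above 0, and of 1561 with 4000 bases of exon or more 1105 did. Exon lengths of the hnRNP and translation factor lists are not given here, and the part of length in their values was not tested. No call was made among 29 genes of 3′ end processing and decay, 13 of export and signal recognition or 11 of the nucleolus. Nor was there a call among 10 genes of editing and modification and 5 of the ELAV family and Sxl. Ski6, CG3709 and CG34140, the called members of RNA decay and RNA modification, are not on these lists. The list of translational repressors and mRNA localization held 3 calls in 35, which were bru-3, fus and how. Of these only bru-3 has translation regulation in its deposited category. Alternative splicing factors held 1 call in 26, small RNA genes 1 in 17 and the core spliceosome 1 in 22. The core spliceosome list does not hold CG13298 (Sf3b6), which was called lower. bru-3 stands in both the list of repressors and that of splicing factors. Among well-known neuronal genes outside the members, msi, the Musashi paralogue of Rbp6, was at 84.5 in WT and 168 in dFezf1 with a log2 fold change of 1.01 ± 0.37 (SE) and an adjusted p of 0.0896 per the authors' deposited table. orb2, a CPEB protein gene of long-term memory, was at 15.2 and 6.87 with -0.90 ± 0.43 (SE), and pum at 28.6 and 39.5 with 0.55 ± 0.33 (SE) as log2 fold changes of the authors' deposited table. mbl had 1.01 ± 0.58 (SE), Fmr1 0.44 ± 0.46 (SE), A2bp1 (Rbfox1) -0.23 ± 0.31 (SE), brat 0.07 ± 0.35 (SE), Atx2 -0.04 ± 0.34 (SE), caz 0.09 ± 0.75 (SE) and ps 0.64 ± 0.80 (SE) as log2 fold change of the authors' deposited table, none of them called. bru-2 was near 0 in both genotypes.

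Imp and Syp, the opposed temporal RNA-binding proteins left out by the rule, were at 0.496 and 112 in WT and at 0.441 and 168 in dFezf1 in the authors' mean abundance. Among the 99 genes with RNA binding and a further category at or above the floor, 1 was called, or 1.01%, with a median log2 fold change of 0.04. Splicing regulators at or above the floor had 2 calls in 112, and genes of translation regulation 1 in 42. The call among the 99 and that among the 42 are the same gene, bru-3. These shares lie beside the 5.08% of the members and the 5.46% of tested genes at or above the floor. The differences between them were not tested.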

How the data were processed

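Total RNA of the sorted neurons was turned into cDNA by Smart-seq2 and into libraries with Nextera reagents, per the labels' protocols. Tools listed by the submitters' processing notes are DESeq2, Salmon, STAR and FastQC, on BDGP6, and the sources used here do not give the tool behind each column. The authors' deposited table gives, per the file headers, a mean normalized count (a signal over all libraries), a log2 fold change with its SE, a test statistic (a score), p-values and adjusted p-values, and a mean abundance signal per group. The 12 columns of values per library match no sample label and were not used, so depth, replicate spread and a count model are not given. The design text calls the 3 samples of a genotype biological replicates.

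Called means an adjusted p under 0.05 over all 9387 genes the authors tested. Intervals are normal, 95%, from the deposited SE around the fold change, which is treated as shrunken. They do not use the deposited test statistic, so an interval and a call can differ. The Benjamini-Hochberg adjustment was tested on simulated data (Python 3.11.15, SciPy 1.17.1, pandas 2.3.3). Symbols are those deposited, with the current name in brackets; 173 of 177 members matched the name table by identifier, and all 173 had the same start in the annotation of BDGP6. Named genes are the called members, the 10 highest by count and by WT abundance, up to 3 members of each list by count, known neuronal genes fixed by name, the 5 greatest changes not called and the genes nearest the floor. eIF2B-delta, Ef1alpha48D, EF2, ssx, pasha, loqs, drosha, Dcr-1, Dcr-2, r2d2, Prp31 and armi were named after their values were seen. The members, lists and roles were chosen with earlier results of these data known. Roles were given by hand to 122 members. No protein or promoter sequence is shown.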

Additional observations from a re-analysis of the deposited data

How the results depend on the processing

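The count of 9 called members stayed within 1.5 times under an adjusted p of 0.01 (8), adjustment over genes at or above 100 (9) or above 0 in both genotypes (8), intervals that exclude 0 (9), and floors of 50 (10), 200 (6) or none (12). With no floor, 6 in place of 3 members were higher. Among members with an estimated count of at least 100 in both genotypes, an alternative chosen after seeing the data, 2 were called, 1 higher and 1 lower; that filter uses the group means and so removes genes by their change. The median log2 fold change was -0.18 when taken from the ratio of the authors' group means, which over all tested genes at or above the floor had a median of -0.07. For the floors of 50 and 200 it was -0.07 and -0.06. Of the genes named by rule, 62 could be adjusted over genes at or above 100 and 64 over genes above 0 in both genotypes, and none of these crossed the threshold. The called genes how, CG34334 and CG3808 have no value under either, CG7849 none under the first and CG3709 none under the second, and genes named after their values were seen were not included. Leaving out each replicate and an edgeR fit with TMM were not run, since no column of values per library matches a sample label. No paired analysis was possible because those columns carry no replicate number. The depth of the libraries is not known here, and with an SE near its upper bound a change in a low gene is poorly bounded.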
